A study of Homo sapiens with 3 samples.

Results

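RUNX1, RUNX2 and RUNX3 are the 3 DNA-binding subunits of core binding factor, and CBFB is their shared partner, which does not touch DNA itself but steadies the binding of the others. These 4 of the 19699 genes named on an Agilent expression array were measured by 9 of its 34127 probes, 5 for RUNX1, 1 for RUNX2, 2 for RUNX3 and 1 for CBFB. Probes were taken where the RefSeq table used here gave the accession printed beside the probe to one of these genes. Probe A_32_P161762, printed with NM_004348, which that table does not list, may belong to RUNX2 and was not used here, so the counts of probes hold for the accessions matched. The genes were selected on the intensities of these same 3 arrays, where the RUNX1 probes had been seen to differ from each other in both treated arrays. The values of the 9 probes are therefore a description and no test was made of them.

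The arrays held total RNA of PANC-1, an established human pancreatic cancer cell line, grown in culture. The control array came from cells whose label names no agent and no vehicle. The cantharidin array came from cells given 20 µM of cantharidin for 24 h, and the okadaic acid array from cells given 20 µM of okadaic acid for 24 h. Both agents inhibit serine/threonine phosphatases, PP2A among them, and the study used them to ask how PP2A inhibition changes the genes of tumour cells, those of blood vessel growth included. There was 1 array for each condition, so the spread between cultures is unknown and no p-value was computed.

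The 4 genes carry different jobs. RUNX1 is required for the first blood stem cells and for megakaryocytes and lymphocytes, RUNX2 for bone-forming cells, and RUNX3 for cytotoxic T cells, some sensory neurons and epithelia. All bind the same short DNA motif through the Runt domain and either raise or silence a gene, depending on which coactivators or corepressors they bring. RUNX1 is read from a distal and a proximal promoter. The transcript NM_001001890 encodes a full-length protein made from the proximal promoter, and NM_001122607 a shorter one that keeps the Runt domain but ends early and lacks most of the activation region. The 2 transcripts share exons, so a probe printed with one accession can also bind the other. Whether any of the probes also reads the longest RUNX1 form was not determined.

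Intensities are the background-corrected, processed signals of the scanner software, in array units. Of the 34041 probes with a value on all 3 arrays, 23071 to 25103 were well above background by the software's own flag, and no probe was saturated. Differences between arrays are log2 differences after each array was divided by its 75th percentile, and a difference of 1.5-fold or more was called where one or both of the arrays compared read the probe well above background. The dimmest probe so read on an array sets that array's floor. The ± after each log2 difference is a spot standard error, taken from the 100 probes with 10 replicate spots that lay nearest in brightness. It covers noise between spots on an array and nothing else. The median of all probes compared lay at −0.17 with cantharidin, −0.01 with okadaic acid and 0.11 between the agents, on the log2 scale.

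Markers of several cell types were read by whether they were well above background, a measure that did not set the labelled cell type apart. Of 6 epithelial markers, 6 were well above background in control and 5 on each treated array, with CDH1, the epithelial cadherin, above background in control alone. Of the pancreatic markers, SOX9 and GATA6 were above background on every array and PDX1 on none. Of 4 mesenchymal markers VIM, CDH2 and ZEB1 were above background on every array and FN1 on none. Summed intensities in control, cantharidin and okadaic acid were 146484, 164597 and 269074 for the epithelial markers. They were 13758, 2321 and 6395 for the pancreatic and 317879, 306626 and 240672 for the mesenchymal markers. These sums are over different probes and unequal numbers of genes. All 5 leukocyte markers were also above background on every array, with summed intensities of 4312 in control, 3145 with cantharidin and 12844 with okadaic acid, none of them at 0. CD14 held the highest of these values in okadaic acid, 11044. Of 3 endothelial markers, each read by its brightest probe, CDH5 and VWF were above background on every array and PECAM1 on none. Another PECAM1 probe was above background on 1 array or more. The summed intensities of the brightest probes were 2261 in control, 1315 with cantharidin and 1589 with okadaic acid. Fibroblast and osteoblast markers were above background in 0, 1 and 0 of 3 cases, in the order control, cantharidin, okadaic acid. The part of any such signal in the values of the RUNX genes, which leukocytes and osteoblasts use strongly, was not tested.

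RUNX1 was read by 5 probes, all well above background on all 3 arrays, and they did not move together. The RefSeq promoter window given for RUNX1 lies inside the gene, at the proximal start of both transcripts printed beside the probes. Its 250 bases before the start are shown for that reason.
RUNX1 proximal promoter, GRCh38.p14, chr21:34888700-34888949, minus strand: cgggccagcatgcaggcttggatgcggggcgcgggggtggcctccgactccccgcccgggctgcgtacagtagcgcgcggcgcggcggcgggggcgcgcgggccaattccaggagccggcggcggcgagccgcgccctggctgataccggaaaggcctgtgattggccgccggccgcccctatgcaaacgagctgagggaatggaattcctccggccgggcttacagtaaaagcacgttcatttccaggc
Neither the RUNX motif TGTGGT nor its reverse complement ACCACA, and no AP-1 motif TGANTCA, was found on either strand in the whole 300-base window, which runs from 250 bases before to 50 bases after the start and had a G and C content of 72.0%. Among all 35116 RefSeq windows of this length, 13.1% held the RUNX motif, 7.71% held the AP-1 motif, and the median G and C content was 58.7%. That these letters are not in this window says nothing of the factors themselves.

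Probe A_33_P3211804, printed with NM_001001890, gave an intensity of 667 in control, 5524 with cantharidin and 6543 with okadaic acid. Both treated arrays were far above control, by 9.12-fold with cantharidin (log2 3.19 ± 0.11) and by 8.22-fold with okadaic acid (log2 3.04 ± 0.087). The agents differed from each other on this probe by −0.15 ± 0.10 on the log2 scale, okadaic acid minus cantharidin, which was under 1.5-fold.

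Probe A_24_P34155, printed with NM_001122607, gave 1358 in control, 11763 with cantharidin and 3214 with okadaic acid. Here the cantharidin array stood apart from both others. The difference from control was 9.53-fold higher with cantharidin (log2 3.25 ± 0.10) but 1.98-fold higher with okadaic acid (log2 0.99 ± 0.11), and okadaic acid was 4.81-fold below cantharidin (log2 −2.27 ± 0.12).

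The other probe of NM_001122607, A_33_P3211809, gave 293 in control, 682 with cantharidin and 313 with okadaic acid, so again the cantharidin array alone was high. It was 2.56-fold higher than control with cantharidin (log2 1.36 ± 0.15), while the difference with okadaic acid was −0.16 ± 0.14 on the log2 scale. Okadaic acid lay 2.86-fold below cantharidin (log2 −1.52 ± 0.15). Both probes printed with this accession thus read higher in cantharidin than in okadaic acid, by different amounts. Which transcripts they bind was not determined.

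The last 2 probes of NM_001001890 were dimmer. A_33_P3211818 gave 87.1 in control, 125 with cantharidin and 143 with okadaic acid. It read 1.58-fold higher with cantharidin (log2 0.66 ± 0.26), just inside the threshold, and 1.38-fold higher with okadaic acid (log2 0.46 ± 0.26), just outside it. A_24_P96403 ran the other way with cantharidin: its intensity was 219 in control, 122 with cantharidin and 286 with okadaic acid. It was the only RUNX1 probe lower with cantharidin, by 1.63-fold (log2 −0.71 ± 0.20), and read within 0.13 ± 0.16 of control with okadaic acid on the log2 scale. Between the agents it was 1.79-fold higher with okadaic acid (log2 0.84 ± 0.19). With background corrected by normexp, a model of signal plus background noise, its cantharidin difference was −0.54 and that of A_33_P3211818 was 0.47 on the log2 scale, both under the threshold.

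**Figure D1:**
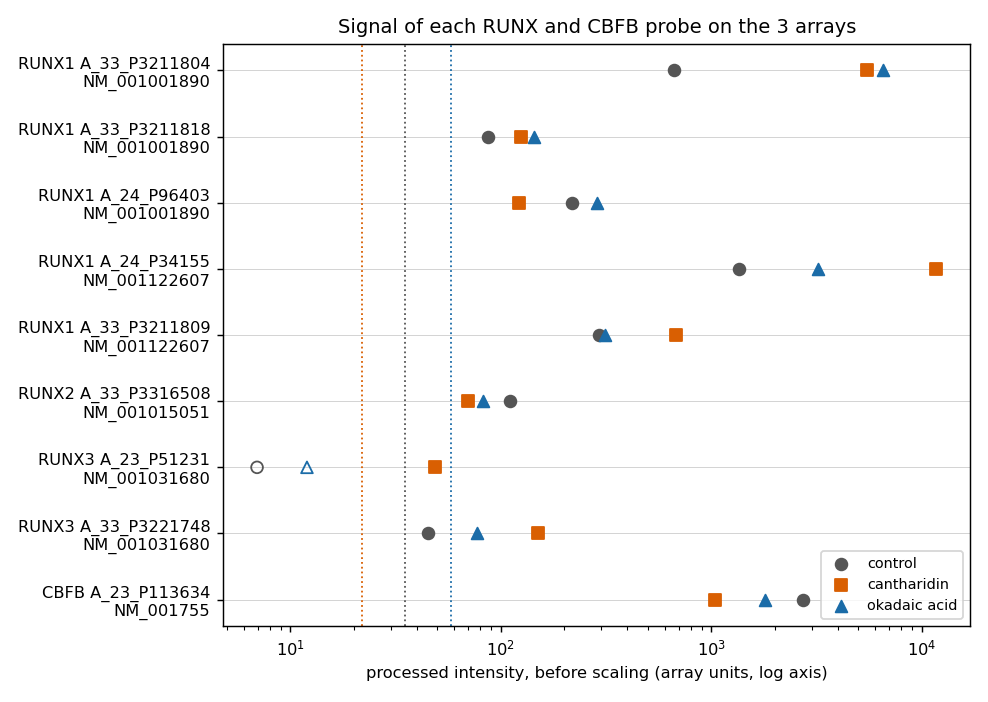
Processed intensity in array units, before scaling and on a log axis, of each of the 9 RUNX and CBFB probes on the control (circles), cantharidin (squares) and okadaic acid (triangles) arrays, with the RefSeq accession under each probe. Open symbols are not well above background, dotted lines mark the floor of each array (35.0 in control, 21.9 with cantharidin, 58.0 with okadaic acid), and the RUNX1 probe A_33_P3211804 is high on both treated arrays while A_24_P34155 is high mainly with cantharidin.

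Grouping the RUNX1 probes by accession did not bring them into line. Within NM_001001890, A_33_P3211804 and A_24_P96403 differed by 3.90 ± 0.22 on the log2 scale in their cantharidin difference, and within NM_001122607, A_24_P34155 and A_33_P3211809 differed by 1.90 ± 0.18. Across accessions, A_24_P34155 and A_33_P3211804 read nearly alike with cantharidin, with a gap of 0.06 ± 0.15. With okadaic acid the same pair was 2.05 ± 0.14 apart. Of the 10 pairs of RUNX1 probes, 9 differed by 1.5-fold or more in their cantharidin difference, 7 in their okadaic acid difference and 9 in the difference between the agents. Of the 4 pairs that share an accession, 4, 3 and 3 differed by 1.5-fold or more. The pairs reuse the same selected probes, and the share of such pairs over all genes is not given here, so nothing is read from these counts. Ranges over the probes of other genes follow below. The error model of the scanner software gave errors of 0.20 to 0.27 on the log2 scale for the differences of the RUNX1 probes, wider than most of the spot errors. Both treated arrays were compared with the same control array, so a deviation of that array would enter both.

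Probes of one gene differed elsewhere on the array as well. RUNX1 was 1 of 10 genes with exactly 5 probes well above background on all arrays. Its probes covered a range of 3.96 on the log2 scale with cantharidin, where the median of the 10 genes was 2.15 and 2 genes had a wider range. With okadaic acid its range was 3.20 against a median of 0.95, with 2 genes wider, and between the agents 3.10 against 1.1, with 0 wider. The 3 probes of NM_001001890 covered 3.90 with cantharidin and 2.91 with okadaic acid, where 173 accessions with 3 such probes had medians of 1.12 and 1.04, and 5 and 13 of them were wider. For the 2 probes of NM_001122607 the gap was 1.90 with cantharidin and 1.15 with okadaic acid, against medians of 0.48 and 0.54 over 2036 accessions with 2 such probes, 213 and 426 of which were wider. Between the agents the ranges were nearer the medians, 1.03 against 0.85 for NM_001001890, with 65 accessions wider, and 0.75 against 0.46 for NM_001122607, with 652 wider. Since RUNX1 was selected on this pattern, its place in these orders is a description only.

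RUNX1-IT1, a long non-coding RNA read from within the RUNX1 gene, has a probe of its own (A_24_P65941, accession NR_026812). Its intensity was 232 in control, 213 with cantharidin and 229 with okadaic acid. The 3 arrays were close, with log2 differences from control of 0.02 with cantharidin and −0.27 with okadaic acid, neither of which reached 1.5-fold.

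RUNX2 and RUNX3 share a stretch of sequence near a start site, and it is shown because it holds 2 copies of the motif that their own proteins bind. The capitals mark that motif.
RUNX2, GRCh38.p14, chr6:45328338-45328367, plus strand: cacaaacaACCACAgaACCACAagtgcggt
RUNX3, GRCh38.p14, chr1:24965120-24965149, minus strand: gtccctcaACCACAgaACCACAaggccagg
The run common to both, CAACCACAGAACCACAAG, is 18 bases long and occurred in 2 of the 35116 windows, those of RUNX2 and RUNX3. Counted from the start as position 1, the motifs begin at 17 and 25 in RUNX2, within the transcribed part, and at −131 and −123 in RUNX3. The RUNX2 window had a further 2 copies, at −191 and −87, and an AP-1 motif at −243, and 1.31% of all windows held at least 2 copies of the RUNX motif. RefSeq gives each of these genes a second window, and neither held a RUNX or AP-1 motif. The distal start of RUNX1 had no window here and was not searched. Whether it holds the same run is therefore not known from these windows. The motif matches are a description of the sequence and the arrays hold no measure of binding there.

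RUNX2 was read by 1 matched probe, A_33_P3316508 (accession NM_001015051), beside the unmatched one left out above. It was dim on every array. Its intensity was 111 in control, 70.0 with cantharidin and 81.9 with okadaic acid, the last being 1.41 times the floor of its array. Both treated arrays were below control. The difference was 1.62-fold lower with okadaic acid (log2 −0.69 ± 0.30), just past the threshold, and 1.44-fold lower with cantharidin (log2 −0.53 ± 0.31), just short of it. Over 7 other ways of processing, the okadaic acid difference ran from −1.0 to −0.39 and the cantharidin difference from −0.67 to −0.27, so neither call was firm.

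RUNX3 was measured by 2 probes of 1 accession, NM_001031680, both close to background in control. A_33_P3221748 gave 45.3 in control, 150 with cantharidin and 77.4 with okadaic acid, which were 1.29, 6.85 and 1.33 times the floor of each array. The cantharidin array was the high one. The difference from control was 3.64-fold higher with cantharidin (log2 1.87 ± 0.33) and 1.43-fold higher with okadaic acid (log2 0.52 ± 0.39), and okadaic acid was 2.54-fold below cantharidin (log2 −1.35 ± 0.30). With normexp the cantharidin difference was 0.93 and that between the agents −0.74 on the log2 scale, both still past 1.5-fold.

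The second RUNX3 probe, A_23_P51231, gave 6.95 in control, 48.9 with cantharidin and 12.0 with okadaic acid, and was well above background with cantharidin alone. A control signal below background sets only a limit, so RUNX3 on this probe was at least 1.54-fold higher with cantharidin than in control, the dim array being raised to its floor. Okadaic acid was at least 1.11-fold below cantharidin, and no fold is given for okadaic acid against control, where both arrays were below background. The error model of the scanner software put 1.45 to 2.03 on the log2 scale on the differences of this probe. A_23_P51231 could be compared only through the cantharidin array, the one where it is high, so it is no second support for A_33_P3221748.

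CBFB was measured by 1 probe, A_23_P113634 (accession NM_001755), printed in 10 spots on each array. The spots averaged 2729 ± 42.7 in control (SD, 8 spots without an outlier flag), 1049 ± 101 with cantharidin (SD, 10 spots) and 1809 ± 50.1 with okadaic acid (SD, 8 spots). The spots ranged from 2669 to 2791 in control, from 937 to 1295 with cantharidin and from 1730 to 1889 with okadaic acid. These intensities are before scaling, and the spots are repeats on an array, not separate cultures. CBFB was 2.37-fold lower with cantharidin (log2 −1.25 ± 0.040) and 1.80-fold lower with okadaic acid (log2 −0.85 ± 0.029) than in control. Okadaic acid was 1.32-fold above cantharidin (log2 0.40 ± 0.041), under the threshold. The error model of the scanner software put a wider error, 0.20 on the log2 scale, on each of these CBFB differences. Over the 7 other ways of processing, CBFB lay between −1.38 and −1.17 with cantharidin and between −0.97 and −0.59 with okadaic acid.

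**Figure D2:**
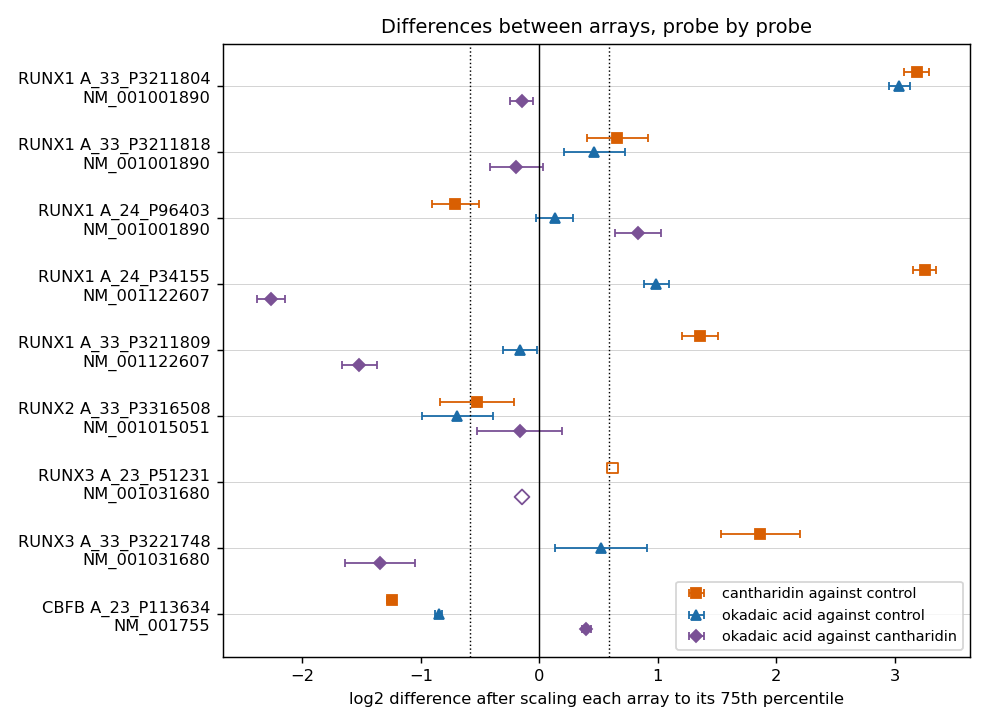
Log2 difference between arrays after scaling to the 75th percentile, for each of the 9 probes, with cantharidin against control as squares, okadaic acid against control as triangles and okadaic acid against cantharidin as diamonds. Bars are the spot standard error, dotted lines mark 1.5-fold, open symbols are at-least bounds (1.54-fold and 1.11-fold for A_23_P51231), and the 5 RUNX1 probes spread from −0.71 to 3.25 with cantharidin.

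Counted over the 9 probes, 6 were at least 1.5-fold higher with cantharidin, 4 of RUNX1 and 2 of RUNX3, where 26.4% of all 26769 probes compared were. Another 2 were lower, 1 of RUNX1 and that of CBFB, where 33% of all probes were. With okadaic acid 8 of the 9 could be compared. Of these 2 were higher, both of RUNX1, against 26.5% of all 25714 probes compared, and 2 were lower, those of RUNX2 and CBFB, against 27.7%. Between the agents, 1 RUNX1 probe was higher with okadaic acid, against 28% of all 25771 probes compared, and 4 were lower, 2 of RUNX1 and 2 of RUNX3, against 22.5%. One of these 4, A_23_P51231, was counted by its measured difference, although its bound alone does not reach 1.5-fold. It passed the filter only through the cantharidin array, here and among the 6 higher with cantharidin. The median difference of the probes was 1.36 with cantharidin, 0.30 with okadaic acid and −0.19 between the agents, on the log2 scale. The same arrays supplied the rule and these counts, so nothing is read from them about the family.

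**Figure D3:**
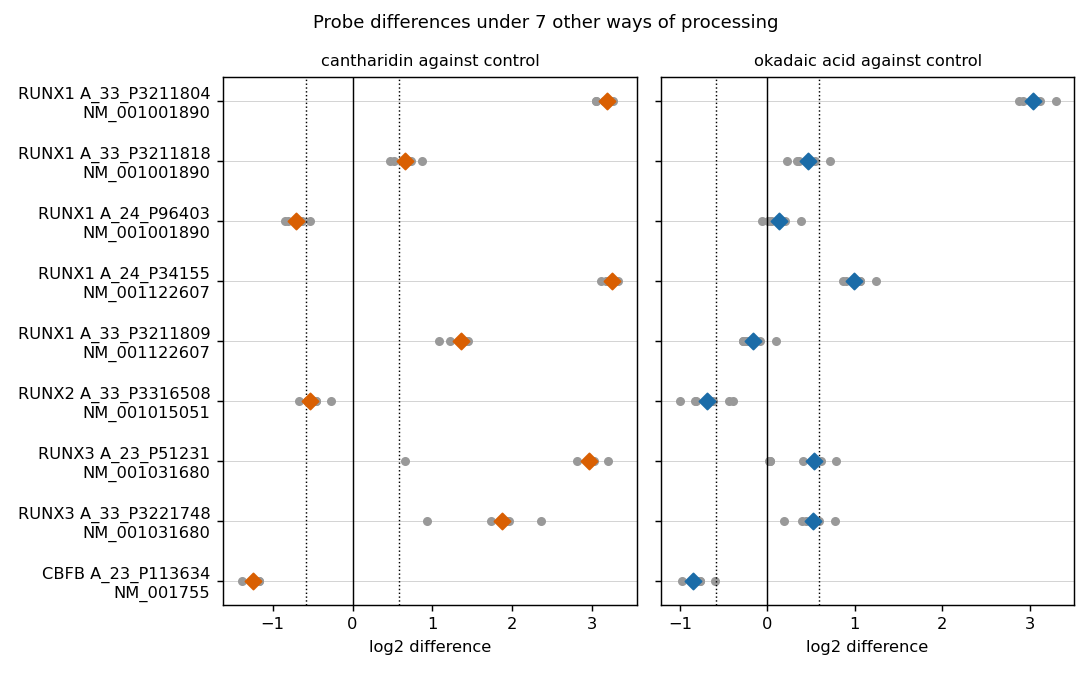
Log2 differences from control of each probe under the processing used here (coloured diamonds) and under 7 other ways of processing (grey points), for cantharidin on the left and okadaic acid on the right, with dotted lines at 1.5-fold. The 2 large RUNX1 differences with cantharidin stayed between 3.05 and 3.32, while the RUNX3 probes moved most, A_33_P3221748 from 0.93 to 2.36, and A_23_P51231 is drawn at its measured difference although it was below background in control and okadaic acid.

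The genes whose pair of differences lay nearest to each member were sought among 14221 genes well above background on all 3 arrays, by Euclidean distance between the cantharidin and okadaic acid log2 differences. For RUNX1, taken by its brightest probe A_24_P34155, the nearest were AAK1 (3.38 and 1.07, distance 0.15), GOSR2 (3.12 and 0.90, distance 0.16) and MIOX (3.10 and 0.91, distance 0.17). Few genes resembled it, 7 within a distance of 0.25. For RUNX3, by A_33_P3221748, they were ZNF445, NAT8L and XPOT, and 59 genes lay within 0.25. The commoner patterns were those of CBFB, with BICRAL, PITPNC1 and NDUFB7 nearest and 213 genes within 0.25, and of RUNX2, with GCN1, HMHB1 and MCTS1 nearest and 387 genes within 0.25. A likeness over 2 differences that share a control array orders the genes and says nothing more.

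The wider pathway was followed in 82 genes on 4 lists of proteins or targets that work with RUNX factors, 81 of which had a named probe. Each gene was read by its brightest probe. The list of corepressors, proteins of the kind that RUNX factors recruit to silence genes, was counted first. Of 14 corepressors compared, 3 were at least 1.5-fold higher and 8 lower with cantharidin, where 27.5% of all 16644 genes compared were higher and 34.1% lower. With okadaic acid 3 were higher and 7 lower, against 28.1% and 28.8% of 16166 genes. At 2-fold 3 were higher and 1 lower with cantharidin, and 0 were higher and 4 lower with okadaic acid. The shares of all genes at 2-fold are not given here, so these counts are a description only. Their median difference was −0.60 with cantharidin and −0.50 with okadaic acid, where the medians of all genes were −0.16 and 0.01. With CBFA2T3, a gene below background in okadaic acid, set at its bound, the okadaic acid median was −0.35.

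TLE5, a short Groucho-family protein, gave an intensity of 32323 in control, 19100 with cantharidin and 2884 with okadaic acid. It was thus 13.4-fold lower with okadaic acid (log2 −3.74). TLE5 is also counted among the listed genes lower with each agent, so those counts hold for the list as drawn up. Whether TLE5 itself acts as a corepressor for RUNX factors was not tested, so its fall is not read as a loss of corepression. SUV39H1, a histone H3 lysine methyltransferase, was lower on both treated arrays, at log2 −2.34 with cantharidin and −1.67 with okadaic acid on its brighter probe and −0.63 and −0.71 on the other. SIN3B, a scaffold for histone deacetylases, was higher on both, at 1.89 and 0.88. The nuclear receptor corepressor NCOR1 read 1.81 and 0.73 on its brightest probe, though its 3 probes ran from −0.09 to 1.81 with cantharidin and from −0.67 to 0.73 with okadaic acid. HDAC3, a deacetylase that works with NCOR1, was the only listed gene past 1.5-fold in opposite directions, with an intensity of 13550 in control, 25885 with cantharidin and 8719 with okadaic acid. It was 2.10-fold higher with cantharidin (log2 1.07) and 1.86-fold lower with okadaic acid (log2 −0.89), and remained past 1.5-fold both ways under all 7 other ways of processing.

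Among coactivators and the factors that bind DNA beside RUNX proteins, 10 of 23 compared were higher and 6 lower with cantharidin, and 11 of 22 were higher and 5 lower with okadaic acid. GATA3 was counted as higher with cantharidin through that array alone. With a signal well above background required on all arrays, 9 were higher with cantharidin. The shares of all genes were 27.5% higher and 34.1% lower with cantharidin, and 28.1% and 28.8% with okadaic acid. The medians were 0.28 and 0.59, beside −0.16 and 0.01 for all genes. At 2-fold 8 were higher and 3 lower with each agent, without a share of all genes at that threshold to set beside them. CEBPA, a myeloid and hepatic factor that works beside RUNX1, gave 65.6 in control, 543 with cantharidin and 9692 with okadaic acid. It was 9.11-fold higher with cantharidin (log2 3.19) and 124-fold higher with okadaic acid (log2 6.95), from a dim control signal, and over the other ways of processing these differences ran from 2.25 to 3.74 and from 5.83 to 7.48 on the log2 scale. The histone acetyltransferase EP300 read 2.68 and 2.52 on the log2 scale. Its relative CREBBP read 2.40 and 0.55, the latter just short of 1.5-fold, and the former ran down to 1.59 under other processing. GATA2, a blood progenitor factor, read 0.32 with cantharidin and 2.52 with okadaic acid, the latter running from 1.21 to 3.01 under other processing. SMAD3, which carries TGF-beta signals and binds RUNX proteins, was 10.4-fold lower with cantharidin (log2 −3.38) and 2.71-fold lower with okadaic acid (log2 −1.44).

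The enzymes that modify RUNX proteins or mark them for breakdown were counted next. Of 19 compared, 2 were higher and 14 lower with cantharidin, and 1 was higher and 11 lower with okadaic acid, with medians of −1.38 and −0.79. CDK6 and ITCH were counted as lower with cantharidin through the control array alone, and ITCH likewise with okadaic acid. With a signal well above background required on all arrays, 12 were lower with cantharidin and 10 with okadaic acid. Of all genes, 27.5% were higher and 34.1% lower with cantharidin, and 28.1% and 28.8% with okadaic acid, with medians of −0.16 and 0.01. Several members of this list, CDK1, CCNB1, CDC20 and SKP2 among them, are known first as cell cycle genes. CDK1, the mitotic kinase, gave 10139 in control, 151 with cantharidin and 477 with okadaic acid, at log2 −5.93 and −4.67, the former reaching −5.25 under other processing. Its cyclin CCNB1 read −2.37 and −0.81, and SKP2, the substrate arm of a ubiquitin ligase, read −3.89 and −2.04, the former running from −4.34 to −2.89 under other processing. PIM1, a serine/threonine kinase, gave 10764 in control, 1605 with cantharidin and 15525 with okadaic acid, and so was 6.10-fold lower with cantharidin (log2 −2.61) and 1.21-fold higher, under the threshold, with okadaic acid.

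Known target genes of RUNX factors made up the last list. Of 17 compared, 8 were higher and 1 lower with cantharidin, and 9 were higher and 1 lower with okadaic acid, with medians of 0.58 and 0.71. SNAI2, below background in control, was counted as higher through the treated arrays alone, and MMP13 through the okadaic acid array alone. With a signal well above background required on all arrays, 7 were higher with each agent. Of all genes, 27.5% were higher and 34.1% lower with cantharidin, and 28.1% and 28.8% with okadaic acid, with medians of −0.16 and 0.01. The 1 lower on each was COL1A1, a bone and fibroblast collagen that was below background on both treated arrays. Under the scaling used here it was at least 21.9-fold lower with cantharidin and at least 10.9-fold lower with okadaic acid. Under other processing its measured differences were as small as −2.41 and −2.35 on the log2 scale, and with a signal well above background required on all arrays no target was lower. CSF2, the cytokine GM-CSF, gave 58.8 in control, 240 with cantharidin and 2981 with okadaic acid, or log2 2.17 and 5.41, and these ran from 1.21 to 2.71 and from 4.07 to 6.06 under other processing. CDKN1A, the CDK inhibitor p21, read 3.31 and 2.47, and BCL2L11, the pro-death protein BIM, read 2.00 and 1.42. VEGFA, the vessel growth factor, read 3.14 and 1.97 on its brighter probe, and its 2 probes ran from 0.81 to 3.14 with cantharidin and from 0.91 to 1.97 with okadaic acid. CLDN1, a tight junction protein, read 2.00 with cantharidin and 0.51 with okadaic acid. CSF2 and VEGFA, and RUNX1 itself, also stand among the vessel growth genes that the study picked from these arrays. The study reported each of them as raised by both agents, and found VEGFA and GM-CSF raised as protein too. The RUNX1 probes described above did not all read higher with either agent. All the lists were chosen with earlier results of these data known, so the directions of the listed genes are not independent evidence.

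**Figure D4:**
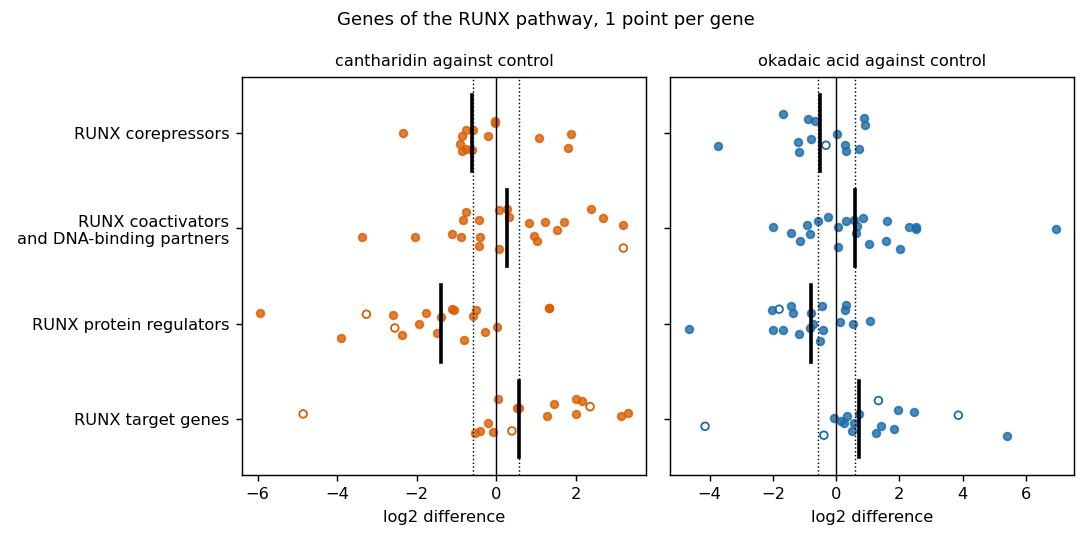
Log2 difference from control of each listed gene (1 point per gene), for cantharidin on the left and okadaic acid on the right, by list, with black bars at the list medians and dotted lines at 1.5-fold. Open points are measured differences of genes below background on 1 of the 2 arrays, and the protein regulators have the lowest median on both sides, −1.38 and −0.79.

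Between the agents directly, over all 72 listed genes compared, 23 were higher and 17 lower with okadaic acid than with cantharidin, where 29.5% and 22.3% of all 16200 genes compared were. The medians were −0.04 for corepressors, 0.04 for coactivators and partners, 0.22 for protein regulators and −0.28 for targets, beside 0.13 for all genes. With genes below background on one of the arrays set at their bounds, or left out where these give no fold, they were −0.26 for corepressors and −0.16 for targets, and the other medians did not move. The 3 medians other than that of the protein regulators changed sign with the scaling. Over all 4 lists, 23 of 73 genes were higher and 29 lower with cantharidin, and 24 of 72 were higher and 24 lower with okadaic acid, so that the lists pooled lay near the share of all genes.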

How the data were processed

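Total RNA of 3 PANC-1 cultures (1 array each) was hybridised to 1-colour Agilent arrays. The deposited intensity values are the authors' Feature Extraction 11.0.1.1 output, in which the software had subtracted background and corrected spatial trends; the array design was annotated on hg19. The log2 values of the deposited normalized table, made by the authors from the same arrays for 30923 probes, were used only as an alternative; the steps behind them are not given in the sources used here. Here, log2 processed signal was averaged over spots without outlier flags and scaled to each array's 75th percentile. Accessions were named through RefSeq GRCh38.p14 tables, which named 25705 probes of 19699 genes. Members and gene lists were chosen with earlier results of these data known. Named list genes were up to 5 per list with the largest difference among those above background on both arrays compared, plus genes called in opposite directions; some of these are not reported here. Alternatives were other scalings (median, 75th percentile of detected probes, quantile, none), normexp with offset 50 on the median spot signal (limma 3.58.1, R 4.3.3), the deposited table, all spots kept, other filters, 2-fold, and the median over probes. Calling steps were tested on simulated data. Python 3.11.15, numpy 2.4.6 and pandas 2.3.3 were used. The precision is limited by the number of arrays.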

Additional observations from a re-analysis of the deposited data

How the results depend on the processing

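No called direction reversed, and of the counts over all probes or all listed genes and the ranges over probes, 163 under other settings kept to the reported value while 17 moved, by over 1.5 times for a count or over the spot error for a range. Of the single probes and the counts of single lists, 406 kept to it and 71 moved, among them, at 2-fold, corepressors lower with cantharidin (1 in place of 8) and higher with okadaic acid (0 in place of 3) and coactivators lower with cantharidin (3 in place of 6). With normexp, 1 RUNX or CBFB probe in place of 2 was lower with cantharidin, 1 in place of 2 was lower with okadaic acid, and 0 in place of 1 was higher in okadaic acid than in cantharidin. Without scaling, 4 probes in place of 2 were higher and 1 in place of 2 was lower with okadaic acid, and 2 in place of 1 were higher in okadaic acid than in cantharidin. At 2-fold, 1 probe was lower with cantharidin, 1 was higher and 0 were lower with okadaic acid, and 0 were higher in okadaic acid than in cantharidin. Of the listed genes, 17 in place of 29 were lower with cantharidin at 2-fold, and 10 in place of 17 were lower in okadaic acid than in cantharidin both without scaling and at 2-fold. With normexp the range over the RUNX1 probes was 3.71 in place of 3.96 with cantharidin and 2.75 in place of 3.10 between the agents, and the range over the RUNX3 probes was 0.28 in place of 1.09 and 0.11 in place of 1.07. Fewer genes pass at 2-fold by construction, and for the other changes the cause was not tested. The median of all probes moved to −0.30 with cantharidin and 0.25 with okadaic acid without scaling. No paired analysis was possible because each condition has 1 array, which also leaves no array to leave out. Signal over background limits RUNX2 and RUNX3.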
